A study of Mus musculus with 9 samples.

Results

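Colonic mucosa of hGAS transgenic mice was compared with colonic mucosa of mice without a working gastrin gene, across all genes on an expression array. The comparison rested on 6 of the 9 arrays of the study, 3 hGAS and 3 GasKO, chosen by their titles, and the 3 wild-type (WT) arrays entered the same fit. Each gene was represented by the probe set with the highest mean over the 9 arrays, and 11273 of the 18193 genes on the array were tested because at least 3 arrays reached log2 4. A value below log2 4 is called near background here.

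The GasKO mice carried the genotype Gas-/-, the hGAS mice a transgene named hGAS, and the WT mice neither. All 9 samples came from males aged 6 weeks on a C57BL/6 background, and the mucosa had been lifted from the wall by injecting saline beneath it. The labels name neither the promoter nor the tissue that drives the transgene, nor whether the hGAS mice kept their own gastrin gene, so the pair of groups may differ in endogenous gastrin as well as in the human product. The labels do not say whether the 3 arrays of a group came from separate mice, so each p-value reflects only how far these arrays scatter, which may be technical.

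Gastrin is made in stomach G cells as a long precursor, progastrin, which is cut and amidated to the hormone that drives acid secretion. Progastrin that leaves the cell uncut reaches the blood, and mice known by the name hGAS carry a human gastrin gene in cells that do not process it. In the colon, progastrin has been studied as a growth factor for crypt epithelium, the compartment of stem cells and dividing progenitors below the absorptive and mucus-secreting cells of the surface.

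Mouse Gast was near background on every array. Its level was log2 2.14, 2.11 and 1.99 on GasKO arrays, 1.96, 1.97 and 1.93 on WT arrays, and 1.96, 1.95 and 1.95 on hGAS arrays. The gene was therefore not tested, and its probe set neither shows the deletion nor reads the human transgene. The receptor gene Cckbr was near background too, with a group mean of 1.77 in GasKO and 1.77 in hGAS. Markers of colonic epithelium were high in both groups: Car1, a carbonic anhydrase of surface colonocytes, averaged 13.95 ± 0.07 in GasKO and 14.21 ± 0.10 in hGAS (SD, n = 3 arrays each, as in all group values that follow), and Tff3, a goblet cell trefoil peptide, averaged 14.71 ± 0.02 and 14.49 ± 0.05.

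The arrays of the pair of groups separated cleanly. The correlation of log2 values over the genes tested was 0.990 to 0.994 among hGAS arrays, 0.994 to 0.996 among GasKO arrays, and 0.970 to 0.978 between them. On the first principal component, which held 53.9% of the variance, GasKO arrays lay between 25.8 and 30.1, WT arrays between -13.0 and -8.38, and hGAS arrays between -19.2 and -15.8. The actin probe sets at the 3′ end exceeded those at the 5′ end by log2 0.872 to 0.938 in GasKO and 0.879 to 0.938 in hGAS, so this sign of RNA integrity overlapped between the groups.

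In hGAS against GasKO, 1866 of the 11273 genes tested passed an adjusted p of 0.05 (limma with Benjamini-Hochberg adjustment over all genes), a background of 16.6%. Of these, 907 were higher in hGAS (8.05% of genes tested) and 959 were lower (8.51%). The median absolute difference was log2 0.47 among called genes and 0.12 over all genes tested, whose median signed difference was 0.00. At least log2 1 separated the groups for 152 genes higher and 162 lower, and at least log2 3 for 20 higher and 12 lower. The 3 hGAS and 3 GasKO arrays did not overlap for 1855 of the called genes, and for 36.7% of all genes tested. Among the 304 called genes named by rule below, 179 kept their call when any single array was left out, whereas 100 lost it without GasKO replicate 1 and 101 without GasKO replicate 3. In the same fit 12.1% of genes were called in GasKO against WT (6.64% higher and 5.48% lower in GasKO) and 1.16% in hGAS against WT. Those comparisons share arrays with the main one, and their values serve below only to place a gene relative to WT.

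**Figure D1:**
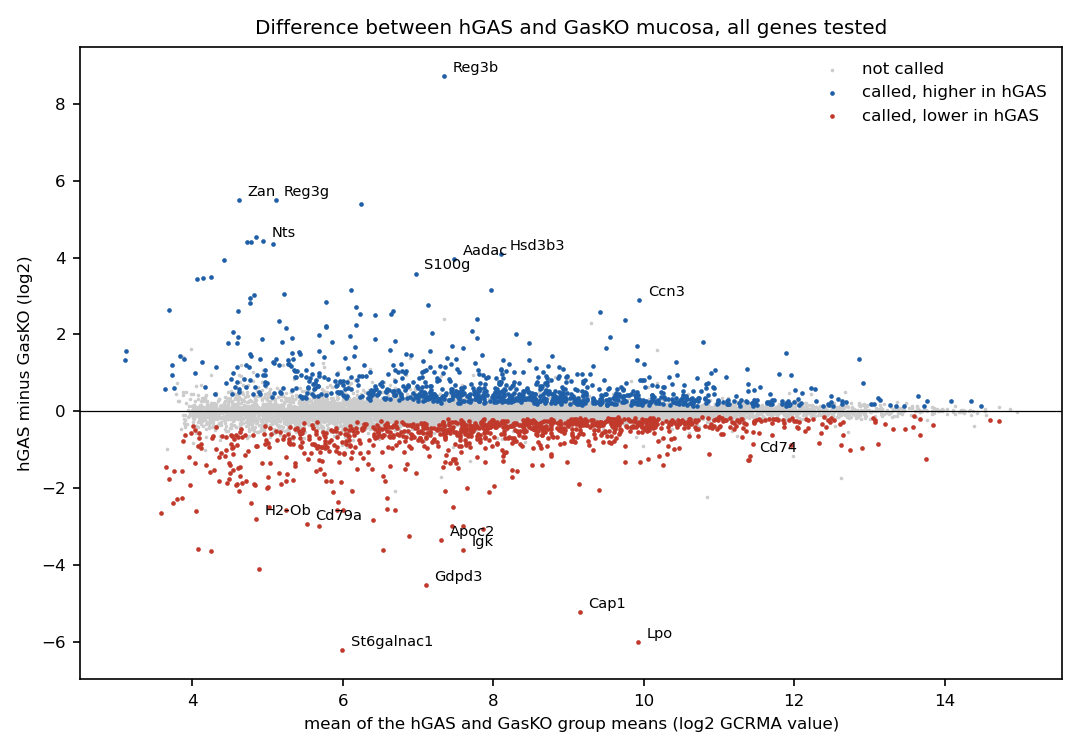
Difference between hGAS and GasKO (log2, vertical axis) against the mean of both group means (log2 GCRMA value, horizontal axis) for each of the 11273 genes tested; blue points are the 907 genes called higher in hGAS, red points the 959 called lower, grey points were not called. Reg3b stands highest at 8.73, and St6galnac1 and Lpo stand lowest at -6.22 and -6.01.

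The largest rises fell into 2 kinds by where WT stood. In one kind the transcript was near background in both GasKO and WT and present in hGAS. Nts, which encodes the ileal peptide neurotensin, read 2.74, 2.76 and 2.66 on GasKO arrays, 2.79, 2.80 and 2.75 on WT arrays, and 7.19, 8.02 and 6.25 on hGAS arrays. All 3 hGAS arrays were thus above every other array, by log2 4.43 ± 0.34 (SE) over GasKO (adjusted p = 2.6e-05, limma) and by 4.37 over WT. Slc51a, which encodes a subunit of the basolateral bile acid exporter, read 2.48 to 2.52 on GasKO arrays and 5.45, 8.22 and 4.32 on hGAS arrays, a difference of 3.50 ± 0.76 (adjusted p = 0.012). Osr2, an odd-skipped transcription factor, differed by 3.45 ± 0.60 (adjusted p = 0.0039), and Prap1, a secreted proline-rich protein of the gut epithelium, by 2.95 ± 0.32 (adjusted p = 2.4e-04). In Slc51a and Osr2 replicate 2 was the highest and replicate 3 the lowest of the hGAS arrays.

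In the other kind the hGAS level matched WT and the transcript was low in GasKO. Zan, a sperm membrane protein gene, read 1.83, 1.89 and 1.86 on GasKO arrays against 7.24, 7.45 and 7.42 on hGAS arrays and 7.27 to 7.84 on WT arrays. Aadac, which encodes a microsomal arylacetamide deacetylase, read 5.54, 5.81 and 5.16 on GasKO arrays and 9.71, 9.23 and 9.45 on hGAS arrays. Neither pair of groups overlapped, and the differences were 5.51 ± 0.13 for Zan (adjusted p = 9.0e-09) and 3.96 ± 0.19 for Aadac (adjusted p = 9.8e-07). Galc, the lysosomal galactosylceramidase, was higher by 3.47, Tnfsf13os, an antisense transcript of a TNF ligand gene, by 4.40, the transcript annotated as Mir1931, which is not the mature microRNA, by 3.93, and Hspb7, a small heat shock protein of muscle, by 3.15. For each of these 4 the GasKO and hGAS means differed while hGAS and WT lay within log2 0.10 of each other. Hsd3b2 and Hsd3b3, hydroxysteroid dehydrogenases that convert steroid precursors, stood between: Hsd3b3 averaged 6.05 ± 0.38 in GasKO, 9.12 ± 0.39 in WT and 10.15 ± 0.10 in hGAS.

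The other large rises included genes of calcium, sulphate and cGMP handling. S100g, the calbindin that carries calcium through enterocytes, read 5.27, 4.89 and 5.38 on GasKO arrays and 8.21, 9.96 and 8.12 on hGAS arrays, with WT at 7.17 to 8.02. Prkg2, the cGMP-dependent kinase of epithelium, read 2.77, 3.20 and 2.72 on GasKO arrays and 7.11, 8.31 and 6.32 on hGAS arrays. The groups did not overlap for either gene, and the differences were 3.58 ± 0.44 and 4.35 ± 0.63 (adjusted p = 5.4e-04 and 0.0015). Slc13a1, a sodium sulphate transporter, was higher by 3.05, Hkdc1, a hexokinase-like gene, by 3.03, and Ccn3, a matricellular protein, by 2.89. In 15 of the 20 largest rises the GasKO mean was near background, so those folds start from a level that the array reads poorly.

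The largest falls were mostly transcripts present in GasKO and low in both hGAS and WT. St6galnac1, a sialyltransferase that caps mucin O-glycans, read 9.19, 8.87 and 9.25 on GasKO arrays and 2.94, 2.82 and 2.88 on hGAS arrays, with WT at 2.78 to 2.92. Lpo, the lactoperoxidase of secretions, read 12.87, 12.97 and 12.96 on GasKO arrays, 6.88, 7.01 and 6.88 on hGAS arrays and 4.78 to 6.06 on WT arrays. Cap1, a regulator of actin turnover, read 11.74, 11.72 and 11.82 on GasKO arrays and 6.56, 6.52 and 6.53 on hGAS arrays, and is among the genes listed as differing between inbred strains. No arrays overlapped for these 3 genes, whose differences were -6.22 ± 0.11, -6.01 ± 0.27 and -5.22 ± 0.08 (adjusted p = 1.5e-09, 7.1e-07 and 5.2e-10).

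Gdpd3, a glycerophosphodiester phosphodiesterase, differed by -4.52, Apoc2, the apolipoprotein that activates lipoprotein lipase, by -3.35, Abhd1, an abhydrolase, by -3.25 and Serpina3n, a serine protease inhibitor, by -2.98. Krt12, a keratin best known from cornea, averaged 6.07 ± 0.64 in GasKO and 2.43 ± 0.08 in hGAS, and Serpina1b, an antitrypsin gene of liver, 5.86 ± 0.66 and 2.28 ± 0.01. Hddc3 and Igsf23 were lower by 3.61 and 3.07 on the log2 scale in the same pattern, with WT close to hGAS. Hsd17b13, a lipid droplet dehydrogenase, was the exception among them, at 9.08 ± 0.03 in GasKO, 6.10 ± 0.51 in hGAS and 3.79 ± 0.81 in WT. In 6 of the 20 largest falls the hGAS mean was near background. The remaining members of the 20 were immune genes, described next, together with Speer4cos and Tmem267, which were lower by 2.83 and 2.58 on the log2 scale.

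For several of these genes the size depended on the probe set. Averaging a gene's probe sets gave St6galnac1 a difference of -3.19, Hddc3 -1.80, Hsd17b13 -1.49, Hspb7 1.30, Slc13a1 1.68 and Tnfsf13os 2.19. The mean over probe sets was 1.16 for Galc, 1.73 for Osr2 and 1.51 for Hkdc1, whose averaged levels were too low to be tested. In all of these but Hspb7 the other probe sets were near background on every array. Such probe sets shrink an average and are no separate reading of the gene. Later averages, among them those of H2-DMa, Rac2, Tac1, Lgr5, St8sia4 and Fbln2, also hold a probe set near background. Zfp945, a zinc finger gene called higher by 4.55 on its brightest probe set, gave 0.92 on the average and -1.55 on the probe sets designed for 1 transcript, so its direction was not settled. All 20 largest rises and all 20 largest falls named by rule kept their call without any single array.

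**Figure D2:**
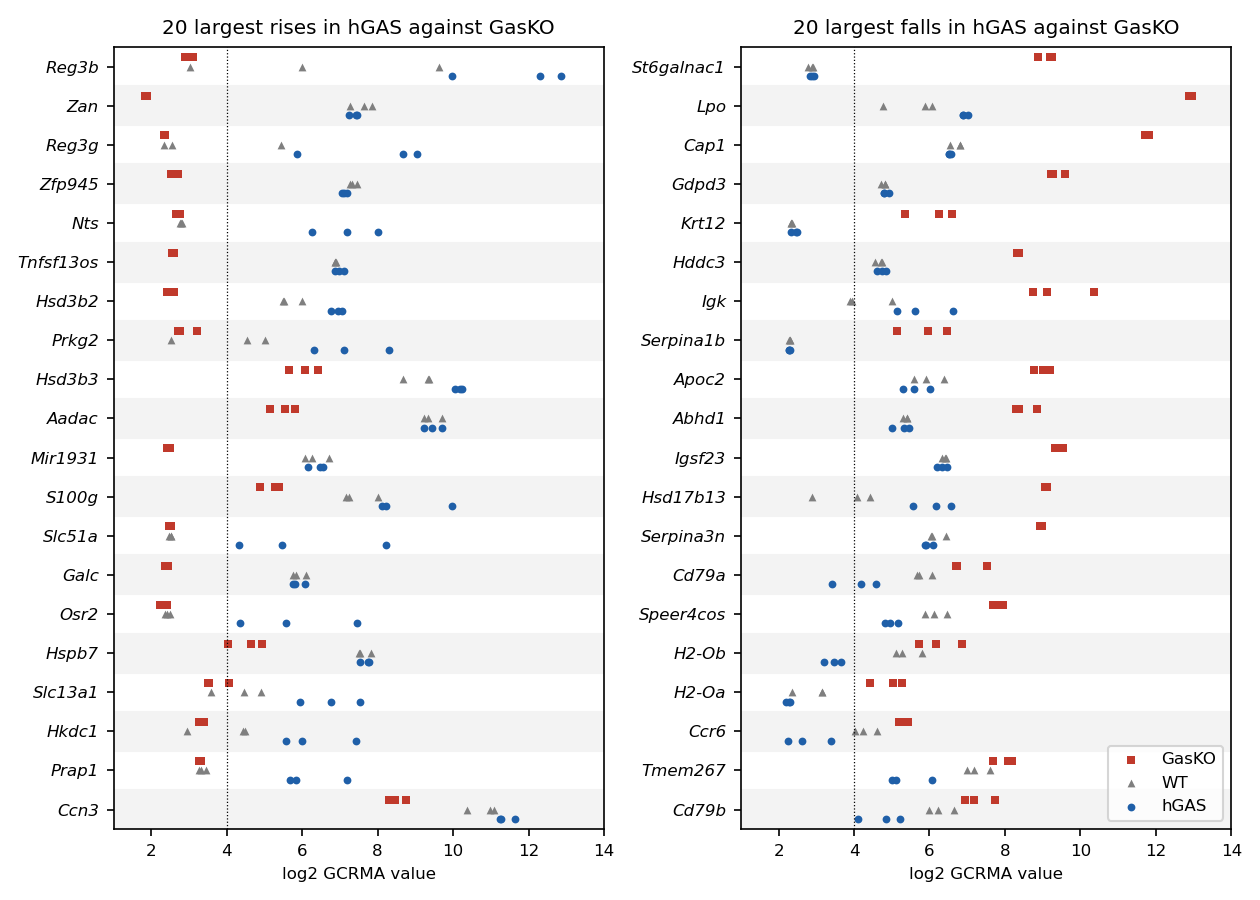
Level on every array (log2 GCRMA value, horizontal axis) of the 20 genes with the largest rises (left) and the 20 with the largest falls (right) in hGAS against GasKO, with 3 points for each group; the dotted line marks log2 4. Zan, Aadac and Cap1 show hGAS and WT points together and GasKO apart, while Nts, Slc51a and Osr2 show GasKO and WT together and hGAS apart.

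**Figure D3:**
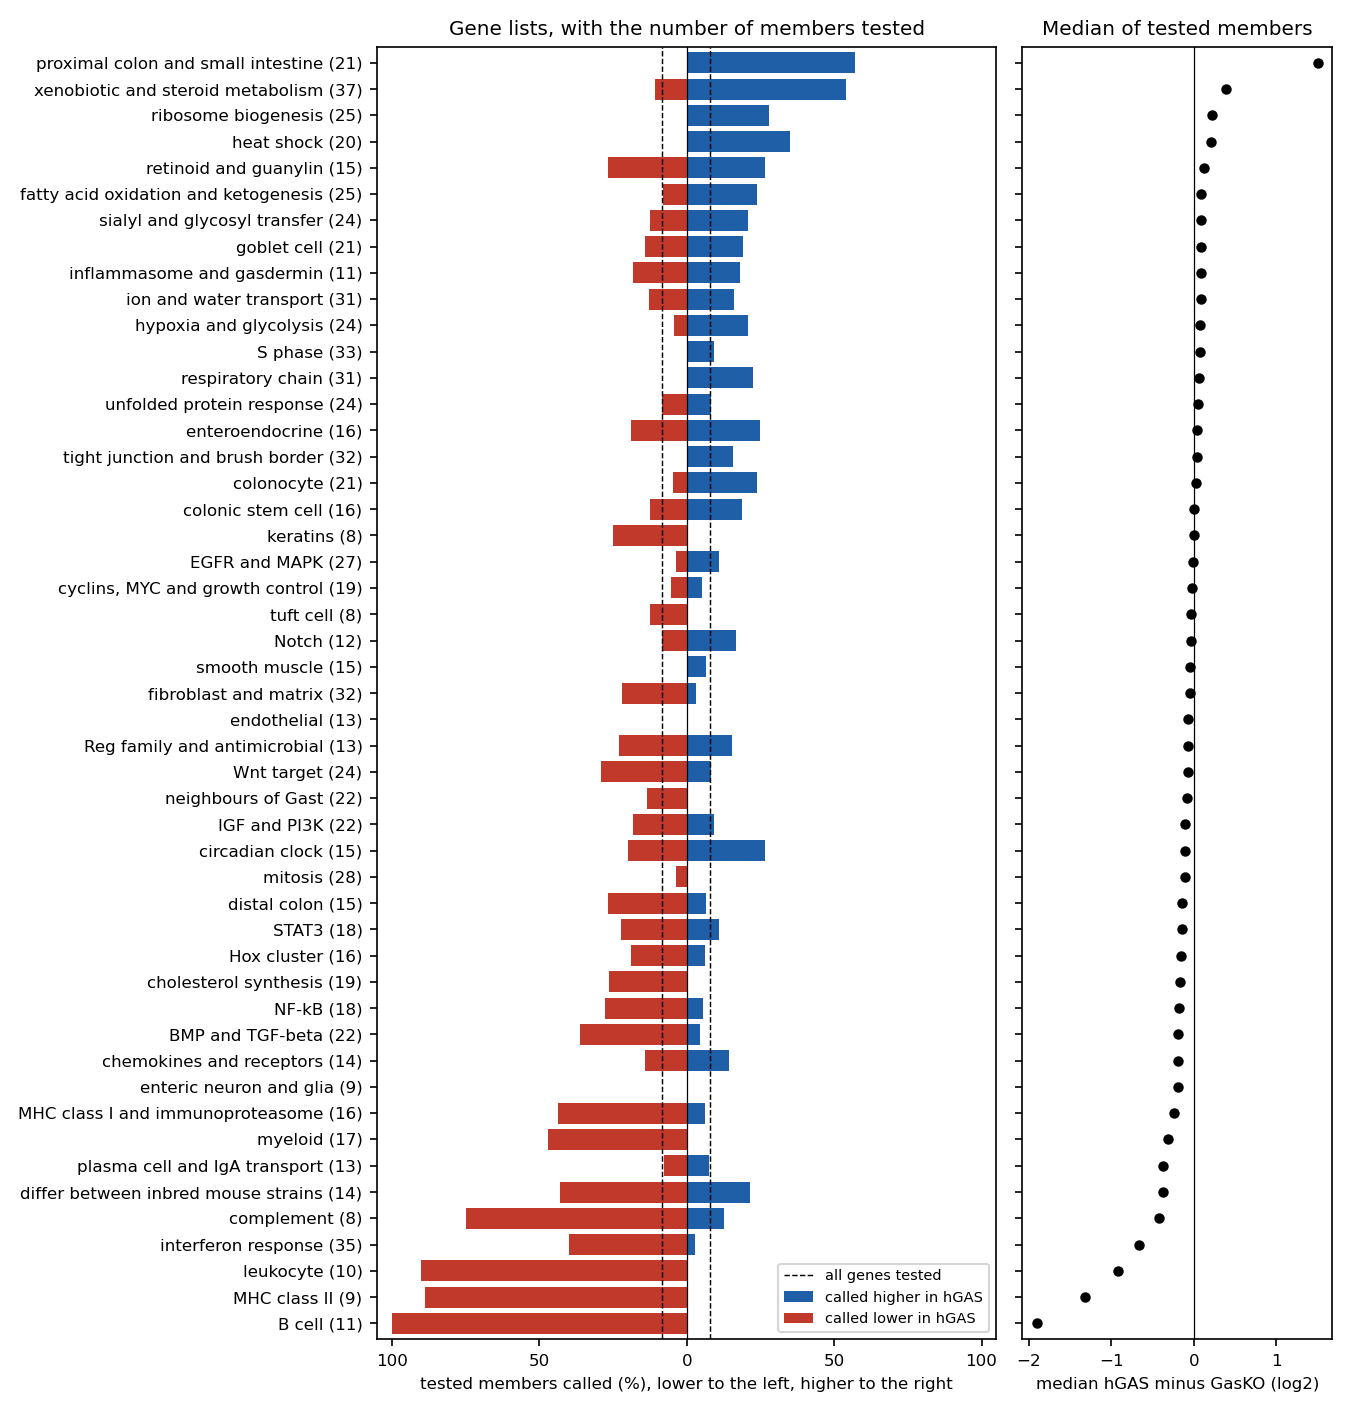
Genes called higher and lower in hGAS against GasKO in each gene list with at least 8 members tested, and each list's median difference (log2); dashed lines mark the same over all genes tested. The B cell list stands lowest, with all 11 members lower and a median of -1.91, and the proximal colon and small intestine list highest, with 12 of 21 higher and a median of 1.50. Some members of the latter passed the filter only through their hGAS arrays.

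B cell genes were lower in hGAS throughout. All 11 tested members of the B cell list were called lower and none higher, with a median difference of -1.91, against 0.00 over all genes tested. Cd79a, a signalling chain of the B cell receptor, read 7.52, 6.71 and 6.72 on GasKO arrays, 6.08, 5.66 and 5.72 on WT arrays, and 3.43, 4.17 and 4.59 on hGAS arrays. The groups did not overlap, and WT lay between them: hGAS was below GasKO by 2.92 ± 0.30 (adjusted p = 1.7e-04) and below WT by 1.76. Fcmr, the receptor for IgM, read 6.81, 6.24 and 6.53 on GasKO arrays and 3.98, 3.95 and 3.96 on hGAS arrays, whereas WT, at 5.89 to 6.84, resembled GasKO. Cd37, a leukocyte tetraspanin, Spib, an ETS factor of B cells, Cd79b and Ccr6, a chemokine receptor of mucosal lymphocytes, differed by -1.91, -1.83, -2.56 and -2.59. The list score, the mean difference of its tested members from their 9-array mean, ranged from 0.72 to 1.17 on GasKO arrays and from -1.15 to -0.71 on hGAS arrays. The other called members were Cr2, Ms4a1, Blnk, Cd22 and Pou2af1, the last losing its call in 5 of the 9 fits without an array (adjusted p up to 0.14). The defining markers Pax5 and Blk were near background in both groups. In whole mucosa, fewer B cells and less RNA per B cell cannot be told apart, and the same holds for the other cell types below.

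Antigen presentation through MHC class II fell as well. These genes, which load peptides for CD4+ T cells, had 8 of 9 tested members lower in hGAS and none higher, with a median of -1.32. Cd74, the invariant chain, read 12.05, 11.95 and 12.01 on GasKO arrays, 11.38, 11.42 and 11.30 on WT arrays, and 10.86, 10.84 and 10.80 on hGAS arrays. H2-Ab1, a class II beta chain, read 10.83, 10.74 and 10.80 on GasKO arrays and 9.78, 9.58 and 9.50 on hGAS arrays. Neither gene overlapped between the groups, and the differences were -1.16 ± 0.05 and -1.17 ± 0.07 (adjusted p = 3.7e-07 and 5.3e-06). H2-Eb1 and H2-Aa differed by -1.32 and -1.26, and H2-DMa, which edits the bound peptide, by -1.69 (-0.85 when its probe sets were averaged). The modulators H2-Oa and H2-Ob differed by -2.64 and -2.82, both ending near background in hGAS. H2-Oa reached log2 4 on GasKO arrays alone, so it was tested only through the group where it was high. All 8 called class II genes kept their call without any single array.

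Leukocyte markers moved with both groups of genes, and their part in either result was not tested. Of 10 pan-leukocyte genes, 9 were lower in hGAS and none higher, with a median of -0.92 and list scores of 0.39 to 0.76 on GasKO arrays and -0.51 to -0.39 on hGAS arrays. Ptprc, which encodes CD45, read 9.58, 9.01 and 9.36 on GasKO arrays and 8.28, 8.16 and 8.18 on hGAS arrays. Coro1a, an actin-binding protein of leukocytes, read 9.45, 9.10 and 9.06 against 7.92, 7.64 and 7.89, so neither gene overlapped. Their differences were -1.11 ± 0.14 and -1.39 ± 0.12 (adjusted p = 7.6e-04 and 6.9e-05), and Lcp1, Arhgdib, Rac2 and Laptm5 differed by -0.80, -1.34, -1.40 and -0.76. Averaging probe sets gave -0.30 for Laptm5 and -0.71 for Rac2. Cd52, Cytip and Cd53 were also called lower.

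Macrophage genes and the few T cell genes measured were lower in part. Among 17 myeloid genes 8 were lower and none higher (47.1% called, against 16.6% of all genes tested), with a median of -0.31. The lysozyme gene Lyz2 differed by -0.68, and Mpeg1, a pore-forming protein of macrophages, by -0.63. Lyz1, another lysozyme gene, differed by -0.61 on a probe set that is not designed for 1 transcript. Its probe set of that design was near background on every array. Whether the Lyz1 value is separate from Lyz2 was not tested, so it is no firm macrophage reading. Csf1r, the macrophage growth factor receptor, differed by -0.30 and lost its call without GasKO replicate 1 or with averaged probe sets (adjusted p = 0.053 with the average). Of 17 T cell and intraepithelial lymphocyte genes on the array only Thy1 and Itgae were tested, at -0.65 and -0.76, and Itgae lost its call without GasKO replicate 1 or 3 (adjusted p up to 0.067). The rest were not tested, and the group means of Cd3e, Cd4 and Cd8a were near background.

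Immunoglobulin transcripts and chemokines gave fewer calls. Igk, the kappa light chain locus, read 9.10, 10.36 and 8.74 on GasKO arrays and 5.63, 5.13 and 6.62 on hGAS arrays, with WT at 3.90 to 5.01. The difference was -3.61 ± 0.49 (adjusted p = 0.0010), or -1.23 with averaged probe sets, and kappa genes share sequence, so reads of one probe set can come from several. Of 10 variable segments tested, 4 were lower and none higher, with a median of -0.90. The other 12 tested genes of the plasma cell and IgA transport list gave 1 call, Xbp1, a secretory transcription factor, at 0.23. With Igk, that list had 15.4% of its tested genes called, against 16.6% of all genes tested. Xbp1 lost its call in 4 of the 9 fits that left out an array (adjusted p up to 0.098). Among 14 chemokines and receptors, 2 were higher and 2 lower (28.6% called). Cxcl13, which draws B cells into follicles, read 8.85, 8.64 and 8.68 on GasKO arrays, 7.15, 7.19 and 7.15 on WT arrays, and 6.16, 6.15 and 6.34 on hGAS arrays. The 3 groups lay in separate bands, with hGAS below GasKO by 2.50 ± 0.08 (adjusted p = 7.4e-08). Cxcl12, a stromal chemokine, differed by -0.34 (-0.21 with averaged probe sets), and the monocyte chemokines Ccl6 and Ccl9 by 0.41 and 0.87.

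Interferon-induced genes were lower in hGAS, from a raised level in GasKO. Of 35 tested, 14 were lower and 1 higher (42.9% called, against 16.6% of all genes tested), with a median of -0.67. Oasl2, an antiviral synthetase-like protein, read 10.65, 9.16 and 10.46 on GasKO arrays, 8.08, 8.08 and 7.21 on WT arrays, and 8.33, 8.14 and 8.13 on hGAS arrays. Dhx58, a helicase that regulates RNA sensing, read 7.35, 6.01 and 6.91 on GasKO arrays and 5.56, 4.59 and 4.65 on hGAS arrays. In both genes replicate 2 was the lowest GasKO array yet remained above every hGAS array. The differences were -1.89 ± 0.36 and -1.82 ± 0.34 (adjusted p = 0.0068 and 0.0063), and the mean over the probe sets of Dhx58 was -0.67. Trim30a, a TRIM-family restriction factor, Oas1a, an oligoadenylate synthetase, Ifit2 and Ifi27 differed by -1.52, -0.94, -1.33 and -0.58, and each stayed within log2 0.31 of WT in hGAS. The list score was 1.04, -0.01 and 0.73 on GasKO replicates 1, 2 and 3, and 0.00, -0.32 and -0.23 on hGAS replicates 1, 2 and 3. Replicate 2 of GasKO thus overlapped hGAS on the score, and without it 27 genes of the list were called.

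The other called members were Rtp4, Oasl1, Ifi35, Ifit1, Parp14, Ifih1, Oas2 and Zbp1, all lower, and Xaf1, an apoptosis-associated gene, higher. Only 7 of the 15 called genes of the list kept the call without any single array. Fits without one array called between 7 genes, without GasKO replicate 3, and 27, and the fit with the replicate number as a block called 23. Xaf1 was higher by 1.04 on its brightest probe set and gave -2.90 on the average of its probe sets, so its direction was not settled, and it lost its call in 7 of the 9 fits without an array.

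Some promoters of these genes held letters of the kind through which interferon acts. Interferon-stimulated response elements, bound by the STAT and IRF factors, hold a pair of GAAA repeats, and the letters GAAANNGAAA were searched on both strands in the window from 250 bases before to 50 after the start of each gene (RefSeq, GRCm38.p6). Of the 35 tested genes of the list, 26 had a promoter in that table, and 15 of these (57.7%) held the motif. The share was 3.62% among genes tested on the arrays that had a promoter and 3.99% of all 27025 genes in the table. The list was chosen as genes that interferon induces, so its share describes the list and not the difference between hGAS and GasKO. Of the 8 with a promoter among those called lower, 4 held it (50%), a share no higher than that of the list. Over all genes called lower the share was 4.06%, and over all called higher 3.16%. The promoters of Ifit1 (chr19:34640639-34640938, plus strand), Trim30a (chr7:104465144-104465443, minus strand) and Oas1a (chr5:120907476-120907775, minus strand) are shown because they are called genes of the list that hold it upstream of the start; in the fourth, Ifih1, it lies after the start. Each reads 5′ to 3′ along the gene, and capitals mark the motif or its reverse complement, TTTCNNTTTC.
Ifit1: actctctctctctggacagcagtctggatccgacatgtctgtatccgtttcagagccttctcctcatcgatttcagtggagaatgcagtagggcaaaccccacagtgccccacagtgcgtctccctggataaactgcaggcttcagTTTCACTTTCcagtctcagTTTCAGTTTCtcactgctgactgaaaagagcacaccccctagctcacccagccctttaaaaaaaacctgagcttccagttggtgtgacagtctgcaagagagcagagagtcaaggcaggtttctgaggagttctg
Trim30a: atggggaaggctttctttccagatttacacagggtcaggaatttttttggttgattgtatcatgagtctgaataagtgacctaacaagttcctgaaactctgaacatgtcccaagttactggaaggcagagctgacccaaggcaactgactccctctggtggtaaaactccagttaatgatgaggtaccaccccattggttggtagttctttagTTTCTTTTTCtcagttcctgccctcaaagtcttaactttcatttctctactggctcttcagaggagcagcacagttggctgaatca
Oas1a: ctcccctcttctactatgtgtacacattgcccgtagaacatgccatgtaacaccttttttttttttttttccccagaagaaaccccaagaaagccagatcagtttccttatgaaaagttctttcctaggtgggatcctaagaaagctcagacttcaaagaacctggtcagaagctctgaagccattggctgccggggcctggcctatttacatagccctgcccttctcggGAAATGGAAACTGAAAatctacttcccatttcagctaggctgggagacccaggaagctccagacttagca
Ifit1 itself, an inhibitor of viral translation, read 9.69, 8.11 and 9.12 on GasKO arrays, 6.32, 5.93 and 4.36 on WT arrays, and 7.15, 7.10 and 6.87 on hGAS arrays. The groups did not overlap, but the call (adjusted p = 0.028) was lost without GasKO replicate 1 or 3 or any 1 of the hGAS replicates. A match is a description of letters and shows no binding.

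Class I antigen presentation, which interferon also induces, shifted by less. Of 16 tested genes 7 were lower and 1 higher (50% called, against 16.6% of all genes tested), with a median of -0.24. Psmb8, an immunoproteasome subunit, read 9.35, 8.77 and 9.21 on GasKO arrays and 8.31, 8.07 and 8.06 on hGAS arrays, a difference of -0.97 ± 0.14 (adjusted p = 0.0014) that came to -0.52 with averaged probe sets. Psmb9 differed by -0.72, Tapbp, the tapasin that bridges class I to its peptide transporter, by -0.31, and the class I heavy chains H2-D1 and H2-K1 by -0.24 each. H2-M3, a nonclassical class I gene, was higher by 0.56. H2-D1 lost its call with averaged probe sets (adjusted p = 0.055), and Tap2 and B2m, also called lower, lost theirs in 3 and 4 of the 9 fits without an array. Clu, a chaperone that restrains complement, read 11.04, 10.82 and 11.01 on GasKO arrays and 9.48, 9.64 and 9.57 on hGAS arrays, and led the complement list, in which 6 of 8 tested genes were lower and 1, Cd59a, higher. The proteases C1s1 and C1ra differed by -0.47 and -0.60, and the list median was -0.42. Cd55, a regulator that dismantles complement convertases, differed by -0.49 and lost its call with averaged probe sets (adjusted p = 0.12).

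**Figure D4:**
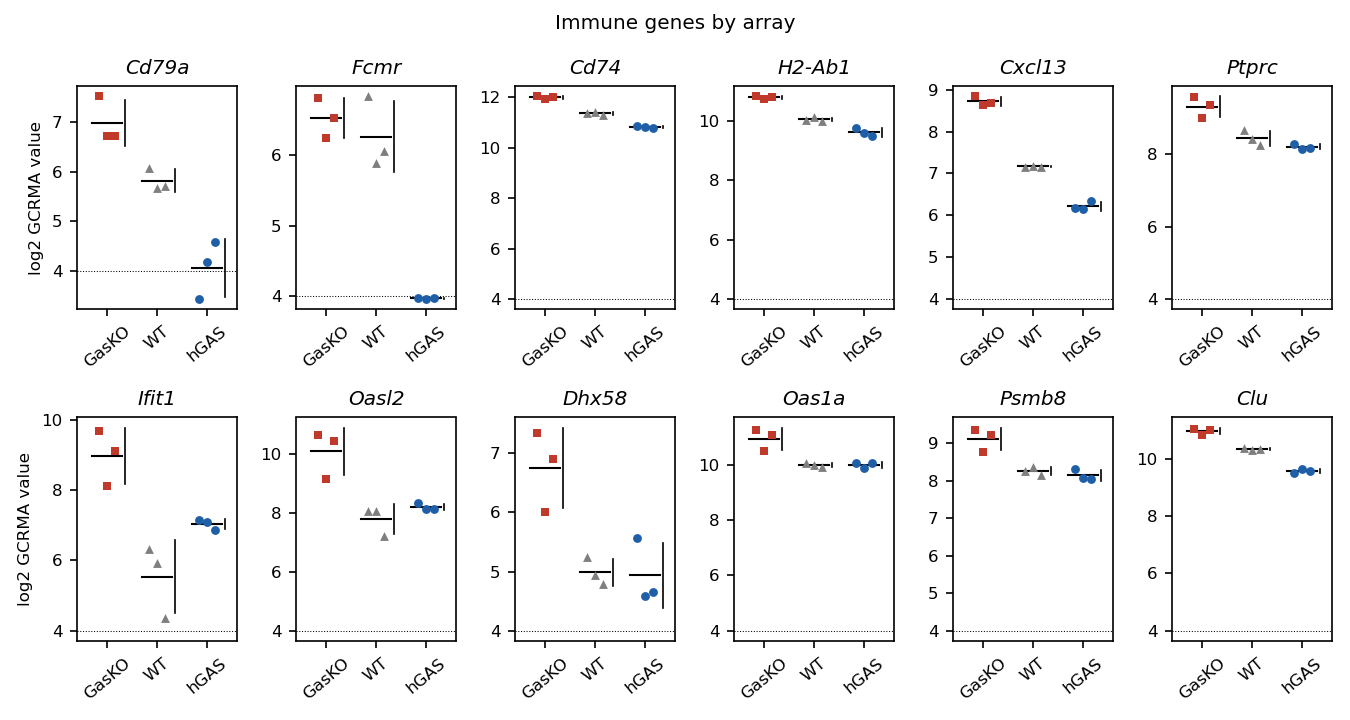
Level on each array (log2 GCRMA value) of 12 immune genes in GasKO, WT and hGAS, with the group mean as a horizontal bar and 1 SD as a vertical bar (n = 3); the dotted line marks log2 4 where it falls in range. Cd74 and Cxcl13 step down from GasKO through WT to hGAS, while Oasl2 and Dhx58 are high in GasKO alone with replicate 2 lowest.

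Genes typical of small intestine and proximal colon were higher in hGAS. Of 21 tested, 12 were higher and none lower, with a median of 1.50, and 12 further members were not tested, Fabp1, Apoa1 and Lct among them, with both group means near background. Beside Nts, Prap1, Slc13a1, Prkg2 and Osr2 the called genes were Hoxb6, Ces1g, Alpi, Car8, Isx, Fabp2 and Apob. Fabp2 and Apob each lost their call in 6 of the 9 fits without an array. Hoxb6, a homeobox gene of trunk position, read 3.28, 3.30 and 3.33 on GasKO arrays, 2.51 to 3.30 on WT arrays and 5.84, 6.77 and 5.10 on hGAS arrays. Alpi, the intestinal alkaline phosphatase, read 4.19, 5.37 and 4.87 on GasKO arrays and 7.38, 7.84 and 7.37 on hGAS arrays. The groups did not overlap for either, and the differences were 2.60 ± 0.36 and 2.72 ± 0.57 (adjusted p = 0.0011 and 0.011). Isx, a homeobox repressor of retinoid uptake, differed by 2.54 ± 0.57 and lost its call without GasKO replicate 1 or 3 or hGAS replicate 2 (adjusted p up to 0.061). The list score was -0.58 to -0.37 on GasKO arrays, -1.0 to -0.24 on WT arrays, and 0.92, 1.51 and 0.61 on hGAS replicates 1, 2 and 3.

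Distal colon genes went both ways, with 4 of 15 lower and 1 higher (33.3% called, against 16.6% of all genes tested) and a median of -0.14. The list score overlapped between GasKO (-0.14 to 0.04) and hGAS (-0.26 to -0.11), and both lay below WT (0.17 to 0.34). Hoxa13, a homeobox gene of the hindgut, differed by -0.60, Hoxb13 by -0.41, Atp12a, a proton pump of distal colon, by -0.57 and Wfdc2 by -0.25, each losing its call without at least 1 array (adjusted p up to 0.13 for the list). Sgk1, the kinase through which aldosterone acts, was the member called higher, at 0.98 ± 0.14 (adjusted p = 0.0011). In the Hox clusters as a whole 1 of 16 tested genes was higher and 3 lower (25% called). Among the lower was Hoxa7 at -0.53, which lost its call in 6 of the 9 fits without an array. The stretch of colon that each sample held is not given by the labels, and its part in these differences was not tested. Squamous epithelium, which lines the anal margin, stood out on single arrays. Krt14 read 5.99 and Krt5 6.77 on hGAS replicate 3, against 2.68 or less and 3.42 or less on the other hGAS and on all GasKO arrays, and 3.79 and 3.57 on WT replicate 2. Of 4 squamous genes tested, Sprr1a alone was called, at 2.40, and lost that call in 7 of the 9 fits without an array. Without hGAS replicate 3 the proximal list gave 10 called genes, and 9 without hGAS replicate 2.

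Among the named genes tested, an antimicrobial lectin had the largest rise. Reg3b read 3.10, 2.89 and 2.94 on GasKO arrays, 6.00, 9.63 and 3.01 on WT arrays, and 12.31, 12.85 and 9.96 on hGAS arrays. Reg3g, which kills Gram-positive bacteria at the mucosal surface, read 2.35, 2.35 and 2.36 on GasKO arrays and 8.66, 9.05 and 5.86 on hGAS arrays. GasKO and hGAS did not overlap for either gene, while the WT arrays spread from near background to 9.63 in Reg3b. The differences were 8.73 ± 1.37 and 5.50 ± 0.93 (adjusted p = 0.0024 and 0.0035), both from GasKO levels near background. Of the 13 tested Reg and antimicrobial genes those 2 were higher, and Lpo, Reg4 and Itln1 were lower. Reg4, a lectin of deep crypt secretory cells, differed by -1.02 ± 0.17 (adjusted p = 0.0030) and Itln1, an intelectin that binds microbial glycans, by -2.0 ± 0.33 (adjusted p = 0.0029).

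Hormone genes of enteroendocrine cells went both ways, with 4 of 16 tested genes higher and 3 lower (43.8% called, against 16.6% of all genes tested). Sct, secretin, read 4.89, 4.89 and 4.90 on GasKO arrays and 6.12, 6.96 and 6.33 on hGAS arrays, with no overlap and a difference of 1.58 ± 0.23 (adjusted p = 0.0014). Tph1, the enzyme that makes gut serotonin, differed by 1.37 and Gcg, the proglucagon gene, by 0.62. Tac1, the substance P precursor, differed by -0.61 (-0.31 with averaged probe sets) and the islet factor Isl1 by -0.93. Of these, Sct kept its call without any single array, and Tph1 lost it in 1 fit, Gcg in 4, Tac1 in 3 and Isl1 in 4 of 9.

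**Figure D5:**
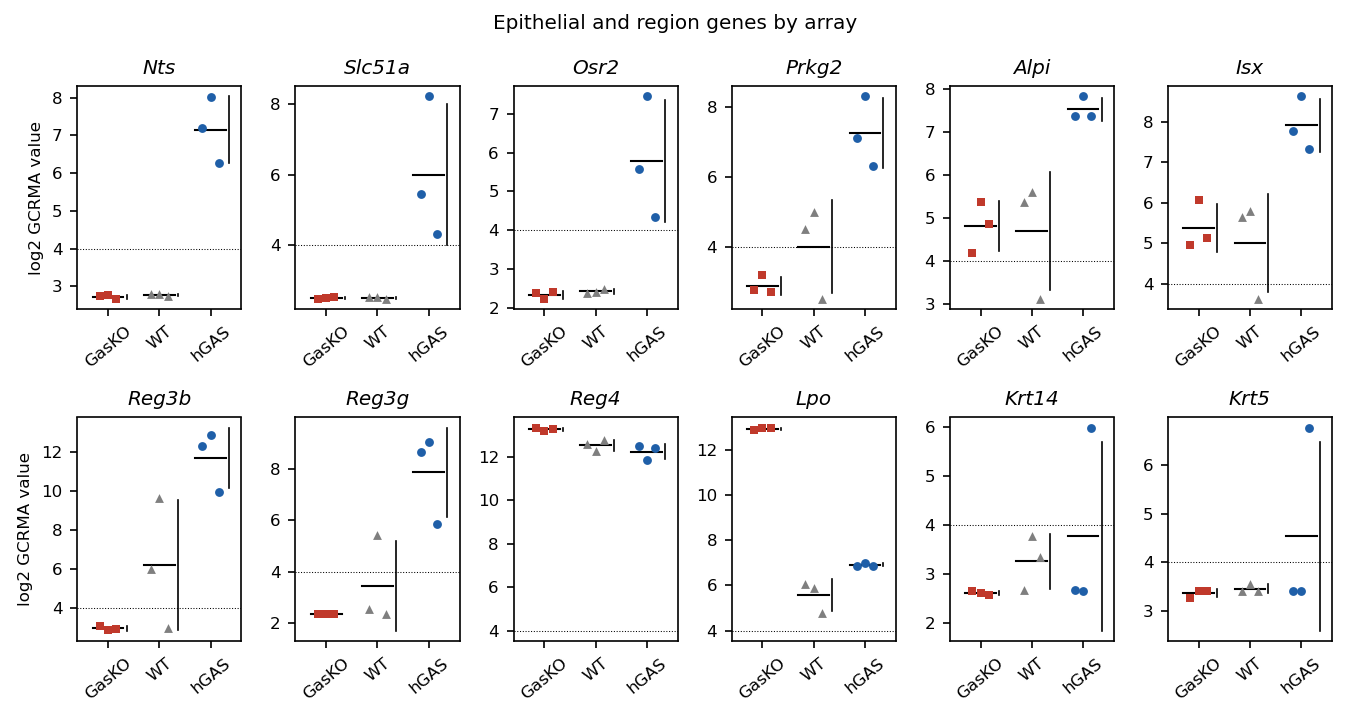
Level on each array (log2 GCRMA value) of 12 genes of region, antimicrobial defence and squamous epithelium in GasKO, WT and hGAS, with the group mean as a horizontal bar and 1 SD as a vertical bar (n = 3); the dotted line marks log2 4 where it falls in range. Nts and Slc51a are present in hGAS alone, and Krt14 and Krt5 rise above log2 4 on hGAS replicate 3 alone.

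Many genes of drug and steroid metabolism rose. Of 37 tested genes 20 were higher in hGAS and 4 lower (64.9% called, against 16.6% of all genes tested), with a median of 0.38. Beside Hsd3b2, Hsd3b3, Aadac and Hsd17b13, Ces2a, a carboxylesterase that hydrolyses drugs and glycerides, read 9.71, 9.87 and 9.77 on GasKO arrays and 10.84, 11.30 and 11.06 on hGAS arrays, with WT at 10.91 to 11.46. Cyp2d26, a cytochrome P450, averaged 6.70 ± 0.14 in GasKO and 7.72 ± 0.32 in hGAS. Neither overlapped, and the differences were 1.28 ± 0.14 and 1.03 ± 0.14 (adjusted p = 2.9e-04 and 0.0012). The other genes called higher were Gsta4, Ces1g, Aldh1a1, Ces2e, Cyp2c55, Ces1f, Abcg2, Abcc3, Cyp2c65, Sult1c2, Ugt2b5, Cyp4f16, Cyp4b1, Abcb1a and Cyp4f14, and those called lower Adh1, Ugt2b35 and Cyp27a1. Of the 24 calls, 13 held without any single array and 15 were made without GasKO replicate 3.

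Retinoid and guanylin genes split evenly, with 4 of 15 higher and 4 lower (53.3% called, against 16.6% of all genes tested). Rbp7, a retinol-binding protein, read 6.53, 6.51 and 6.28 on GasKO arrays and 5.0, 5.05 and 4.79 on hGAS arrays, and Guca2b, the hormone uroguanylin, read 8.46, 8.54 and 8.43 against 7.61, 7.65 and 7.63. Both groups were tight and apart, by -1.49 ± 0.13 and -0.85 ± 0.10 (adjusted p = 5.3e-05 and 5.4e-04). Lrat, which stores retinol as esters, differed by 1.37 (0.79 as the mean over its probe sets) and Aldh1a2, a retinoic acid-forming dehydrogenase, by 1.22. Pde5a, a cGMP phosphodiesterase, was called lower by 0.15 on the log2 scale and gave 0.28 with averaged probe sets, so its direction was not settled, and it lost its call in 5 of the 9 fits without an array. Aldh1a3 was called lower as well.

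Transport genes gave 5 higher and 4 lower of 31 tested, a share of 29% against 16.6% of all genes tested. Trpv6, the apical calcium channel that feeds calbindin, read 5.81, 6.14 and 5.53 on GasKO arrays and 7.18, 7.40 and 7.71 on hGAS arrays, with WT at 7.15 to 7.67. Slc7a9, an amino acid exchanger, read 3.02, 3.79 and 3.26 against 5.99, 6.90 and 5.65, and Cftr, the chloride channel, 9.48, 9.79 and 9.52 against 10.47, 10.36 and 10.44. None overlapped, and the differences were 1.60 ± 0.19, 2.82 ± 0.31 and 0.83 ± 0.09 (adjusted p = 4.4e-04, 2.4e-04 and 3.4e-04). Slc51b, the partner subunit of Slc51a, differed by 1.25 and lost its call in 4 of the 9 fits without an array. Kcnn4, a calcium-activated potassium channel, differed by -0.37, and Slc4a4, Clca1 and Slc6a8 were called lower too.

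Surface and goblet cell genes changed modestly. Among 21 colonocyte genes 5 were higher and 1, Guca2b, lower, a share of 28.6% against 16.6% of all genes tested. The smallest p was for Ceacam20, a microvillus adhesion protein, at 1.34 ± 0.08 (adjusted p = 3.7e-06, limma), and Mall, a membrane raft proteolipid, at 0.64. The brush border and tight junction list had 5 of 32 higher and none lower, a share of 15.6% against 16.6% of all genes tested. The meprins Mep1a and Mep1b differed by 0.71 and 0.49, Naaladl1, an ileal dipeptidase, by 1.56, Espn, an actin bundler, by 0.62 and Cldn15, a claudin, by 0.63, the last losing its call without GasKO replicate 1 or 3 or hGAS replicate 1 (adjusted p up to 0.053). Of 21 goblet cell genes 4 were higher and 3 lower (33.3% called). Ern2, the stress sensor of mucus-secreting cells, read 7.88, 8.17 and 8.13 on GasKO arrays and 9.52, 9.46 and 9.51 on hGAS arrays, a difference of 1.44 ± 0.08 (adjusted p = 4.7e-06). Atoh1, the factor that commits cells to the secretory lineage, was higher by 0.43, while Tff3 and Fcgbp, a mucus protein, differed by -0.22 and -0.47. Glycosyltransferases numbered 5 higher and 3 lower of 24 (33.3% called). Among them C1galt1, which builds core 1 O-glycans, differed by 0.53, St6galnac2 by 0.46, and St8sia4 and Gcnt1 by -0.95 and -0.51. Averaging probe sets gave 0.23 for St6galnac2 and -0.48 for St8sia4.

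Stem cell and Wnt genes went both ways. Of 16 colonic stem cell genes 3 were higher and 2 lower (31.2% called, against 16.6% of all genes tested), with a median of 0.01. Rgmb, a BMP co-receptor, read 8.44, 8.53 and 8.70 on GasKO arrays and 9.03, 9.22 and 9.0 on hGAS arrays, and Axin2, a feedback inhibitor and reporter of Wnt signalling, read 7.82, 7.92 and 7.94 against 7.16, 7.60 and 7.37. The groups did not overlap and the differences were opposite in sign, 0.53 ± 0.08 and -0.52 ± 0.11 (adjusted p = 0.0024 and 0.010), though averaged probe sets gave 0.31 and -0.26. Lgr5, the R-spondin receptor that marks crypt base stem cells, averaged 5.67 ± 0.10 in GasKO, 6.62 ± 0.52 in WT and 6.55 ± 0.33 in hGAS. Its difference of 0.88 ± 0.24 (adjusted p = 0.035, limma) fell to 0.44 with averaged probe sets, of which 1 was near background on every array. The call of Lgr5 was lost without any 1 of the GasKO replicates or hGAS replicate 1 or 3. Prom1 was higher by 0.60, a call lost in 6 of the 9 fits without an array, and Ephb3, a crypt-positioning receptor, lower by 0.55 on the log2 scale. Of 24 Wnt genes 2 were higher and 7 lower (37.5% called). Sfrp2, a secreted Wnt antagonist of stroma, read 7.15, 7.09 and 7.17 on GasKO arrays and 5.30, 5.65 and 5.94 on hGAS arrays, a difference of -1.51 ± 0.15 (adjusted p = 1.3e-04), and Wnt5a, a noncanonical ligand, differed by -0.74 (-0.46 with averaged probe sets).

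BMP and TGF-beta genes tended lower, at 8 lower and 1 higher of 22 (40.9% called) with a median of -0.19. The ligands Bmp2, Bmp4, Bmp5 and Tgfb1 were all called lower, Bmp5 by 0.57 on the log2 scale. Bmp4 lost its call in 6 and Bmp2 in 1 of the 9 fits without an array. The BMP antagonist Chrdl1 differed by -0.67, the inhibitory Smad7 by -0.39 and the target Id4 by -0.48. Id3 was called higher, a call lost in 3 of the 9 fits without an array. With averaged probe sets Chrdl1 gave -0.28, Smad7 -0.26, Tgfb1 -0.21 and Tgfbr2 -0.17, the last no longer called (adjusted p = 0.085). Among growth factor pathways, 3 of 27 EGFR and MAPK genes were higher and 1 lower, and 2 of 22 IGF and PI3K genes were higher and 4 lower. The shares called were 14.8% and 27.3%, against 16.6% of all genes tested. Etv5, an ERK-induced transcription factor, differed by 0.74 and lost its call with averaged probe sets (adjusted p = 0.062). Igfbp4 and Igfbp6, which bind insulin-like growth factors, differed by -0.62 and -0.68, and Tsc22d3, a glucocorticoid-induced leucine zipper, by 0.75 (0.39 with averaged probe sets). The Notch list had 2 higher and 1 lower of 12 (25% called). Of 18 NF-kB genes 1 was higher and 5 lower (33.3% called). Icam1, an adhesion molecule for leukocytes, differed by -0.94 ± 0.15 (adjusted p = 0.0025, limma) and Ptgs2, the inducible cyclooxygenase, by -0.62. Of 18 STAT3 genes 2 were higher, Reg3g among them, and 4 lower (33.3% called).

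Few genes of cell division were called. Of 33 S phase genes 3 were higher and none lower, with a median of 0.07, and of 28 mitosis genes none was higher and 1 lower, with a median of -0.11. The shares called were 9.09% and 3.57%, against 16.6% of all genes tested. The S phase share, all of it higher, lay near the 8.05% of all genes tested that were called higher. Pold1, a catalytic subunit of the replicative polymerases, differed by 0.45 and averaged 7.53 ± 0.11 in GasKO and 7.98 ± 0.12 in hGAS, and Ccne2, a cyclin of S phase entry, differed by 0.47. Mcm2, a subunit of the replicative helicase, differed by 0.36, and Plk1, a mitotic kinase, by -0.52, and Mcm2 lost its call in 5 and Plk1 in 6 of the 9 fits without an array. Ttk, a spindle checkpoint kinase, differed by -0.50, and it was called only with the replicate block (adjusted p = 0.017). Of 19 cyclin, MYC and growth control genes 1, Cdkn1c, was higher and 1, Cdkn1b, lower, and both encode inhibitors of cyclin-dependent kinases. That list had 10.5% of its tested genes called, also below the share of all genes.

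Some ribosome assembly and heat shock genes rose, by small amounts. Of 25 ribosome biogenesis genes 7 were higher and none lower (28% called, against 16.6% of all genes tested), with a median of 0.22. Gnl3, the nucleolar GTPase nucleostemin, read 8.83, 8.78 and 8.83 on GasKO arrays and 9.34, 9.23 and 9.22 on hGAS arrays, with WT at 9.16 to 9.46, and differed by 0.45 ± 0.08 (adjusted p = 0.0034). Ppan and Nob1 differed by 0.46 and 0.39, whereas Ddx21, Nop56, Nip7 and Nop58, also called higher, each lost their call without at least 1 array. Of 20 heat shock genes 7 were higher and none lower (35% called), with a median of 0.21. Hsph1, a large co-chaperone, read 8.55, 8.86 and 8.66 against 9.54, 9.96 and 9.49, a difference of 0.98 ± 0.17 (adjusted p = 0.0046), and Chordc1, Dnaja1, Hspe1, Hspd1 and Hspa8 differed by 0.59, 0.52, 0.35, 0.30 and 0.29. Unfolded protein response genes gave 2 higher, Ern2 and Xbp1, and 2 lower of 24, a share of 16.7% against 16.6% of all genes tested.

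Lists of energy and lipid metabolism had 22.6% to 32% of their tested genes called, against 16.6% of all genes tested. Of 31 respiratory chain genes 7 were higher and none lower with a median of 0.06, but Ndufa4 alone, at 0.35, kept its call without any single array, and 1 gene was called without GasKO replicate 1. Fatty acid oxidation had 6 of 25 higher and 2 lower, led by Ppara, the lipid-sensing nuclear receptor, at 1.09 ± 0.20 (adjusted p = 0.0051). Hypoxia and glycolysis had 5 of 24 higher and 1 lower, with the smallest p for Vegfa, the vascular growth factor, at 0.60. Cholesterol synthesis and transport had 5 of 19 lower and none higher. Abca1, the cholesterol exporter, differed by -0.57 (-0.29 with averaged probe sets), and Srebf1 and Srebf2, which switch on lipid synthesis, by -0.53 and -0.21, losing their call in 3 and 4 of the 9 fits without an array; Srebf2 also lost it with averaged probe sets (adjusted p = 0.16).

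Stromal genes followed the immune genes downward in part. Of 32 fibroblast and matrix genes 7 were lower and 1, Tnc, higher, a share of 25% against 16.6% of all genes tested. Timp3, a metalloproteinase inhibitor, read 9.95, 9.90 and 9.96 on GasKO arrays and 9.01, 9.26 and 9.16 on hGAS arrays, and Fbln2, a fibulin, 7.92, 7.88 and 7.97 against 6.83, 7.18 and 7.18. Their differences were -0.79 ± 0.09 and -0.86 ± 0.11 (adjusted p = 4.0e-04 and 5.4e-04), or -0.35 and -0.42 with averaged probe sets. Pdgfra, a receptor of fibroblasts, differed by -0.37. Col14a1 differed by -0.23 and lost its call with the replicate block (adjusted p = 0.058) and in 7 of the 9 fits without an array (adjusted p up to 0.13). No endothelial gene of 13 and no neuron or glia gene of 9 was called, and of 15 smooth muscle genes Hspb7 alone was. The 5 tested adipocyte genes had a median of -0.69 and no call, and Fabp4, a fatty acid-binding protein, was called only with the replicate block (adjusted p = 0.019). Of 3 tested pancreas and liver genes Serpina1b and Cela1, an elastase, were lower, while Alb, Prss2 and Ins2 were near background. No gene of an erythroid list was tested. Of 8 tuft cell genes 1, Ptpn6, was lower (12.5% called), and of 8 keratins Krt12 and Krt18 were (25% called).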

How the data were processed

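Expression was measured on 9 arrays of 45101 probe sets, 3 per genotype. The deposited values are on a log2 scale and were made by the authors with GCRMA, per the submitters' processing notes; its version and the genome build are not given in the sources used here, and the scanner files were not used here. Of the probe sets, 34945 paired with 1 gene in the platform annotation, 932 with several and 9160 with none; 64 control probe sets were left out. An array has no read depth; with 3 arrays per group their number limits the precision.

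A linear model with 1 term per genotype was fitted to all 9 arrays in limma 3.58.1 (R 4.3.3), with empirical Bayes moderation and a mean-variance trend, and Benjamini-Hochberg adjustment ran across every gene tested. Genes were called at an adjusted p of 0.05. In simulated arrays of 11273 genes, with 50 genes changed at each size, this recovered 68%, 96%, 100% and 100% of changes of log2 0.5, 1, 2 and 3, with 9 false calls. Their noise was independent between genes and far fewer genes changed than were called in the data, so these rates need not hold for the data. Python 3.11.15 made the counts.

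Members and gene lists were chosen with earlier results of these data known. The genes named were Gast, then the 20 largest rises and 20 largest falls among called genes without overlap (passing over predicted genes and immunoglobulin variable segments), and from each list every called member, with values for up to 6 with the smallest p and the 2 members of smallest p where fewer than 2 were called. Values beyond those 6 are given for a few genes chosen after they were seen: Alpi, Ifit1, Xaf1, Isl1, Pde5a, Tef, Krt5, Krt14 and the markers near background. Alternatives were a fit to 6 arrays, other filters, normalizations, probe set rules, variance settings, array weights, a replicate block and each array left out.

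The labels number the replicates 1 to 3 in each group. Deviations from the group means of same-numbered GasKO and hGAS arrays correlated at 0.12, 0.20 and 0.27 over genes. Those of WT and GasKO gave 0.15, -0.006 and 0.15, and those of WT and hGAS 0.25, 0.08 and 0.20. Arrays of unlike number were not compared, so these values do not establish a pairing. The number entered only the alternative fit with a replicate block, and the labels give no litter or batch.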

Additional observations from a re-analysis of the deposited data

Results flagged for a closer look

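Probe sets outside the gene comparison, those with several genes or none in the annotation, also differed between hGAS and GasKO. Of 3314 tested in a fit of their own, 522 passed an adjusted p of 0.05 (limma), 15.8% against 16.6% of genes, with 225 higher in hGAS and 297 lower. The largest rise was 10.50 ± 0.16 (SE), at the probe set 1455869_at, from 2.34 ± 0.04 in GasKO to 12.83 ± 0.16 in hGAS (SD, n = 3), with WT at 11.90. The next, 1431213_a_at, rose by 6.52. The largest falls were -6.90 at 1448022_at and -6.32 at 1447260_at, where WT again lay near hGAS, at 3.70 and 3.30. These probe sets are unnamed here, and their transcripts were not analysed.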

How the results depend on the processing

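Over all genes, a count of called genes moved by over 1.5 times under both stricter rules, and without GasKO replicate 1 or 3 or hGAS replicate 1. The other settings run moved these counts by less. Against 1866 called genes, an adjusted p of 0.01 gave 898 (419 higher and 479 lower), and a plain difference of at least log2 1 without overlap, with no test, gave 326 (160 higher and 166 lower). Leaving out 1 array gave 1219 to 1996 called genes, 574 to 962 higher and 625 to 1034 lower. The fits without GasKO replicates 1 and 3 called 1232 and 1219. Without hGAS replicate 1, 600 genes were called higher, against 907. The replicate block gave 2087 called genes, with 106 calls lost and 327 gained; among named genes it ended the call of Col14a1 and added Fabp4 and Ttk, and it changed no other call. Averaged probe sets ended the call of 39 named genes and turned 2, Pde5a to 0.28 and Xaf1 to -2.90; probe sets designed for 1 transcript turned Zfp945 to -1.55. The mitosis median, -0.11, lay between -0.19 and 0.028 when 1 array was left out, turning sign without hGAS replicate 2. Quantile normalization gave 935 higher of 1893 called genes, and centring each array on its median 971 of 1859. Signal near background limits the folds of low genes.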

Other observations

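Clock genes went both ways between hGAS and GasKO. Of 15 tested, 4 were higher in hGAS and 3 lower, a share of 46.7% against 16.6% of all genes tested. Cry1, a repressor of the clock, averaged 7.70 ± 0.10 in GasKO, 7.68 ± 0.07 in WT and 8.14 ± 0.11 in hGAS (SD, n = 3), a difference of 0.43 ± 0.08 (SE) with an adjusted p of 0.0056 in limma. Nfil3, a repressor of clock output, differed by 0.99, Npas2 by 1.22 and Per1 by 0.91, while Hlf, Nr1d1 and Tef differed by -0.92, -0.83 and -0.77. Cry1 and Nfil3 kept their call without any single array, whereas Npas2 and Hlf lost it in 1, Nr1d1 in 4, Per1 in 5 and Tef in 6 of 9 such fits. The mean over probe sets was -0.47 for Hlf and -0.49 for Tef, which was then no longer called (adjusted p = 0.089 in limma). The hour of sampling is not given in the labels, and its part was not tested. Inflammasome genes gave 2 higher and 2 lower of 11 (36.4% called). Casp4, an inflammatory caspase, differed by 1.37, Pycard, an inflammasome adaptor, by 0.49, and the cytokines Il33 and Il18 by -0.61 and -0.41. Il18 lost its call without any 1 of the GasKO replicates.

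Genes known to vary between mouse strains or colonies were called in 64.3% of those tested, against 16.6% of all genes. Their list was written with earlier results of these data known, so the share only describes the list. Of 14 tested, 3 were higher in hGAS and 6 lower, Cap1 and Trim30a among the lower, with a median absolute difference of log2 0.82 against 0.12 over all genes tested. Glo1, the glyoxalase gene, read 12.00, 12.04 and 12.04 on GasKO arrays, 10.79, 10.62 and 10.72 on WT arrays and 10.83, 10.72 and 10.68 on hGAS arrays. Ide, the insulin-degrading enzyme, read 8.83, 8.78 and 8.77 on GasKO arrays and 9.83, 10.03 and 9.47 on hGAS arrays, with WT at 8.76 to 8.93. Nnt, the mitochondrial transhydrogenase, differed by 0.76 and lost its call without any 1 of the GasKO replicates, and Wdfy1 differed by 0.89. The labels give C57BL/6 for all groups, and the part of genetic background in the differences was not tested. Y-linked Kdm5d and Uty were not called, with adjusted p of 0.17 and 0.32 in limma.

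Of the 50 genes nearest Gast in gene order, 25 on either side, 22 were tested and 3 were called, all lower in hGAS. They were Cnp at -0.40, Dhx58 at -1.82 and Acly at -0.19, the last losing its call in 7 of the 9 fits without an array. That is 13.6% of those tested, near the 16.6% of all genes. On the side of Gast that holds the keratin genes only Krt13, Krt19, Krt17 and Krt42 were tested, so the share rests mainly on the other side. No motif GAAANNGAAA was found in the 18 promoters of tested neighbours that the table held.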
